A study of Rattus norvegicus with 9 samples.

Results

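The neuropeptide genes described here are Npy, Vip, Gal, Cck, Nts, Crh and Adcyap1, 7 of the 20413 genes in the deposited table. They were chosen by name as neuropeptides that sensory neurons are known to make after injury, and their choice drew on earlier CPIP against Sham values of these same libraries. The data are bulk mRNA-seq of L4-6 dorsal root ganglia (DRG) of male Sprague Dawley rats aged 8 to 10 weeks, taken from the side of the injured hind paw at day 10. In chronic post-ischemia pain (CPIP), a model of complex regional pain syndrome type I, a tight O-ring stops blood flow to a hind paw for 3 h under anaesthesia, and reperfusion follows its removal. Sham rats were anaesthetised alike but wore a cut O-ring, the CPIP group got the ischemia alone, and the CPIP+EA group got the same ischemia and then electroacupuncture (EA), 100 Hz current through needles at ST36 and BL60, once daily for 10 days. Each group had 3 libraries, and none of these groups got sham EA.

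A neuropeptide is cut from a longer precursor, stored in dense-core vesicles and released to act on G protein-coupled receptors on nearby cells. Uninjured sensory neurons mainly use calcitonin gene-related peptide and substance P, encoded by Calca and Tac1. When a peripheral axon is damaged, many of these neurons switch on peptides that they otherwise hold low, and neuropeptide Y, vasoactive intestinal peptide (VIP), galanin and PACAP are the classical examples in rat DRG. Transcription factors of the CREB and AP-1 families, which bind TGACGTCA and TGA(C/G)TCA, are known regulators of several neuropeptide genes.

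Values are FPKM, read coverage normalised for transcript length and sequencing depth, so levels of different genes can be set side by side. All 20413 genes had summed FPKM of 445647 to 482940 per library, and 18279 to 18456 genes per library were above 0. Read counts are not part of the table, which leaves the counting error behind low values unknown. The 18 sensory neuron markers, such as Tubb3, Isl1 and Scn10a, had summed FPKM of 8154 to 9809 (Sham), 8628 to 8945 (CPIP) and 8051 to 9797 (CPIP+EA), and 0 of them passed the test of any comparison. In both comparisons with Sham 14 of the 18 lay below 0, with median log2 differences of -0.12 and -0.13. A few abundant genes carry the sums, and they moved in opposite directions. From Sham to CPIP the mean FPKM of Tubb3 went from 1177 to 1563 and that of Prph from 978 to 1189. That of Nefm went from 2511 to 2025 and that of Nefh from 1189 to 1008. Bulk tissue cannot tell a larger number of cells that make a peptide from more transcript per cell.

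To show what lies upstream of the members that differed most between groups and of Nts, which alone held the AP-1 site, the 250 bases before the annotated start are printed for 4 genes, from RefSeq on the rat build GRCr8. Promoter entries were found for 5 of the 7 members. Capitals mark TGACG on either strand, the core that CREB-type factors share, or TGANTCA, a loose form of the AP-1 site in which N is any base. Npy lies at chr4:80211861-80212110 (plus strand), Vip at chr1:44470230-44470479 (plus strand), Gal at chr1:210084573-210084822 (minus strand) and Nts at chr7:39460889-39461138 (minus strand).
Npy: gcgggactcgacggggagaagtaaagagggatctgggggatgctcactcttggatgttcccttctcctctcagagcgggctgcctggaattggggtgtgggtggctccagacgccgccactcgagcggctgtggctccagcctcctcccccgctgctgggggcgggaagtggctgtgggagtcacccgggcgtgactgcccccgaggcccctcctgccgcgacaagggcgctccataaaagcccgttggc
Vip: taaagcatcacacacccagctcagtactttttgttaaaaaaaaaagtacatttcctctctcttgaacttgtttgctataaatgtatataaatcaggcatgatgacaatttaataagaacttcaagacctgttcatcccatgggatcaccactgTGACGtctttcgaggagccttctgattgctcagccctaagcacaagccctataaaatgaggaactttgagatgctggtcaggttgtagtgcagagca
Gal: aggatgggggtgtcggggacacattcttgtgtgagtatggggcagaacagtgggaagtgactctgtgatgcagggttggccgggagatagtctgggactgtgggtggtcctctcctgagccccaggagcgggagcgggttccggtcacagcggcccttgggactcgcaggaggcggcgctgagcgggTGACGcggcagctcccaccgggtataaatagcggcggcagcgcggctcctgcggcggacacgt
Nts: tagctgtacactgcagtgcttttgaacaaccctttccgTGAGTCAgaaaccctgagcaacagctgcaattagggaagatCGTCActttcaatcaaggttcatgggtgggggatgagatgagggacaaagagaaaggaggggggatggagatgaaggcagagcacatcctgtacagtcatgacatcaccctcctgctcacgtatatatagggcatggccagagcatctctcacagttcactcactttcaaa

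TGACG stood 97 bases before the start in Vip, 63 bases before it in Gal and, on the opposite strand, 171 bases before it in Nts. Of 33469 rat promoters of the same length, 18.2% held TGACG on at least 1 strand. The full palindrome TGACGTCA, which contains TGACG on both strands, was in 0 of the 5 member windows and in 1.59% of all. TGANTCA was in Nts alone of the 5, as TGAGTCA 212 bases before the start, and in 6.34% of all promoters, a share that counts any base at N. TATAAA was in 12.9% of all promoters and in the windows of Vip, Gal and Adcyap1. The Npy window held none of the motifs searched. These are letter matches in a window of 250 bases, and no binding was measured.

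**Figure D1:**
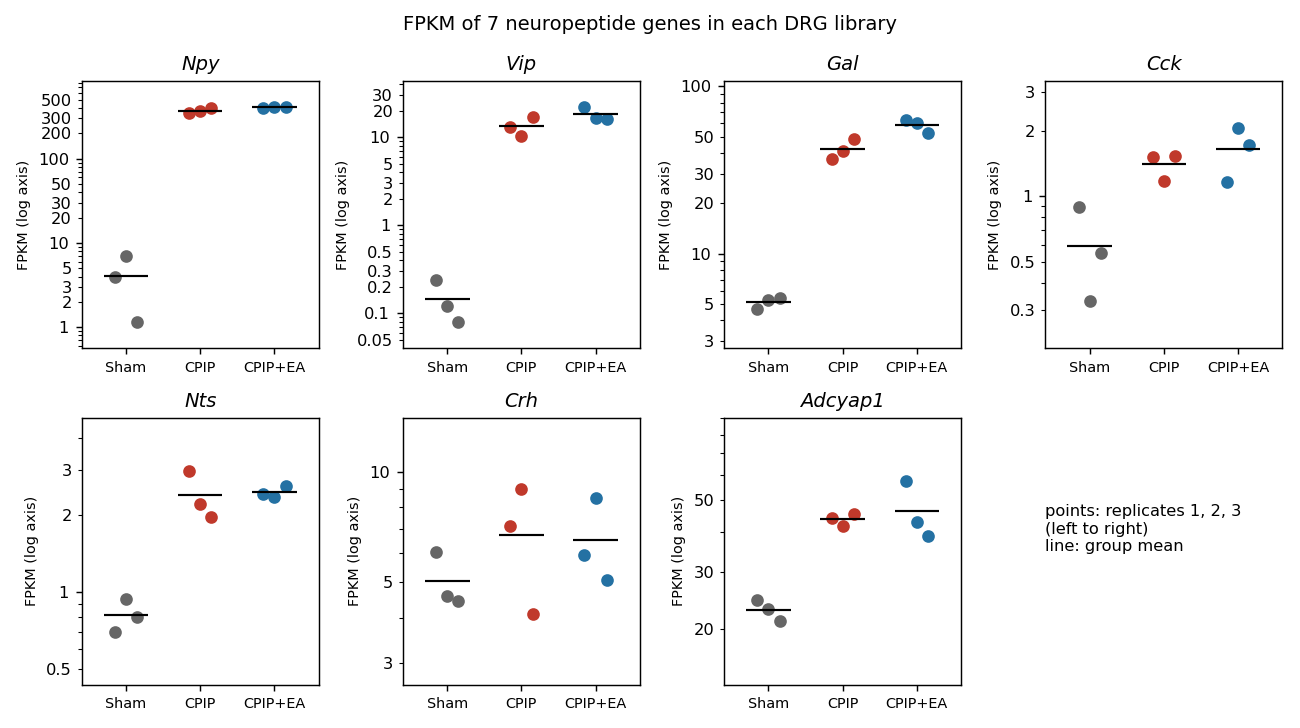
FPKM (log axis, 1 panel per gene) in the 3 Sham, 3 CPIP and 3 CPIP+EA libraries, with replicates 1 to 3 from left to right and a line at the group mean. For Npy, Vip, Gal, Cck, Nts and Adcyap1, every CPIP and CPIP+EA point lies above every Sham point, whereas for Crh the groups overlap.

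In 6 of the 7 genes, each CPIP library was above each Sham library, and the same 6 genes were above Sham in each CPIP+EA library. Crh was the exception in both. Of the 17187 genes tested (mean FPKM of at least 0.1), 7.98% were higher in every CPIP library than in every Sham library and 8.87% were higher in every CPIP+EA library. Since the genes were chosen on CPIP against Sham, and CPIP+EA against Sham shares the Sham libraries, both comparisons are given for the members as descriptions with no test. The median log2 difference over the 7 genes was 1.13 for CPIP minus Sham and 1.18 for CPIP+EA minus Sham, beside -0.0064 and 0.0014 over all genes tested. All log2 differences are of log2(FPKM + 0.5), which understates changes of low genes.

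Npy (gene 24604) encodes neuropeptide Y, a peptide that dampens transmitter release through Y2 receptors on sensory terminals. Its FPKM was 3.92, 7.09 and 1.14 in the 3 Sham libraries. The CPIP libraries held 351.29, 365.95 and 395.27 FPKM, and those of CPIP+EA 396.31, 405.42 and 413.63. The Sham libraries spread over 6.22-fold from lowest to highest, while the injured libraries lay close together, with a mean of 371 ± 22.4 FPKM for CPIP and of 405 ± 8.66 for CPIP+EA (SD, n = 3 each). The CPIP mean was 91.6 times the Sham mean of 4.05 ± 2.98 FPKM, and the log2 difference was 6.61 ± 0.43 (SE). For CPIP+EA minus Sham the log2 difference was 6.74. Among all 20413 genes, Npy ranked between 8674 and 13603 in the Sham libraries, between 124 and 154 in the CPIP ones and between 116 and 138 after EA.

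Set beside the main peptides of the uninjured ganglion, Npy was 0.00447 to 0.0320 times the Tac1 FPKM in Sham libraries, 1.61 to 2.06 times after CPIP and 1.78 to 2.18 times after CPIP+EA. It therefore lay below Tac1 in each Sham library and above it in each injured one. It was below Calca in all 9 libraries, at 0.462 to 0.651 times Calca in CPIP and 0.526 to 0.714 times in CPIP+EA.

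Vip (gene 117064) encodes VIP, which raises cyclic AMP through the VPAC receptors. In Sham it was close to 0, at 0.24, 0.12 and 0.08 FPKM, where the last of the 2 decimals in the file is already a sizeable part of the value. The CPIP libraries reached 13.03, 10.36 and 17 FPKM and the CPIP+EA libraries 21.81, 16.63 and 15.9 FPKM. The injured libraries were all far above Sham and overlapped with each other. The Sham, CPIP and CPIP+EA means were 0.147 ± 0.0833, 13.5 ± 3.34 and 18.1 ± 3.22 FPKM (SD, n = 3 each). The log2 difference from Sham was 4.41 ± 0.19 for CPIP and 4.84 ± 0.19 for CPIP+EA (SE), and with a pseudocount of 0.1 these became 5.80 and 6.24.

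Gal (gene 29141) encodes galanin, which acts on receptors of the GALR family and is known to rise in sensory neurons after axon damage. Sham libraries had 4.66, 5.32 and 5.4 FPKM, CPIP libraries 37.03, 41 and 48.14 FPKM, and CPIP+EA libraries 62.97, 60.37 and 52.86 FPKM. The 3 groups formed 3 separate ranges with CPIP+EA the highest. The CPIP mean of 42.1 ± 5.63 FPKM was 8.20 times the Sham mean of 5.13 ± 0.406, and the CPIP+EA mean of 58.7 ± 5.25 was 11.5 times it (SD, n = 3 each). On the log2 scale the differences from Sham were 2.91 ± 0.11 and 3.39 ± 0.11 (SE).

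Adcyap1 (gene 24166) encodes PACAP, a close relative of VIP that also raises cyclic AMP. Unlike the genes above it was already well expressed in Sham, at 24.52, 23.11 and 21.13 FPKM. After CPIP it was at 44.23, 41.57 and 45.5 FPKM, and after CPIP+EA at 57.24, 42.85 and 38.9 FPKM. Both injured groups were above Sham in each library, and the CPIP+EA range enclosed the CPIP range. The CPIP mean was 1.91 times and the CPIP+EA mean 2.02 times the Sham mean of 22.9 ± 1.70 FPKM (SD, n = 3).

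Nts and Cck were low in all groups. Nts (gene 299757), which encodes neurotensin, went from 0.7, 0.94 and 0.8 FPKM in Sham to 2.98, 2.22 and 1.97 FPKM after CPIP. The CPIP+EA libraries had 2.42, 2.35 and 2.61 FPKM, all between the lowest and highest CPIP values. Its CPIP and CPIP+EA means were 2.94 and 3.02 times the Sham mean, with log2 differences of 1.13 and 1.18 (SE 0.14 each). Cck (gene 25298) encodes cholecystokinin, a peptide known to oppose opioid analgesia. Its FPKM was 0.89, 0.33 and 0.55 for Sham, 1.52, 1.18 and 1.53 for CPIP, and 1.16, 2.06 and 1.72 for CPIP+EA. The groups of Cck came close to each other, since the lowest injured library, at 1.16 FPKM, was not far above the highest Sham library at 0.89. Its log2 differences from Sham were 0.84 and 0.99 (SE 0.22 each).

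Crh (gene 81648), which encodes corticotropin-releasing hormone, did not follow the description of an injury-induced gene. The Sham libraries had 6.04, 4.58 and 4.44 FPKM, the CPIP libraries 7.1, 9 and 4.09 FPKM, and the CPIP+EA libraries 5.93, 8.49 and 5.08 FPKM. The lowest CPIP library was below all 3 Sham libraries, and the groups overlapped in every comparison. Its log2 differences from Sham were 0.34 and 0.32, with an SE of 0.27 each. Leaving out 1 library gave 0.11 to 0.63 for CPIP and 0.13 to 0.47 for CPIP+EA. Without CPIP replicate 3 each remaining CPIP library was above each Sham library, and without Sham replicate 1 each CPIP+EA library was.

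**Figure D2:**
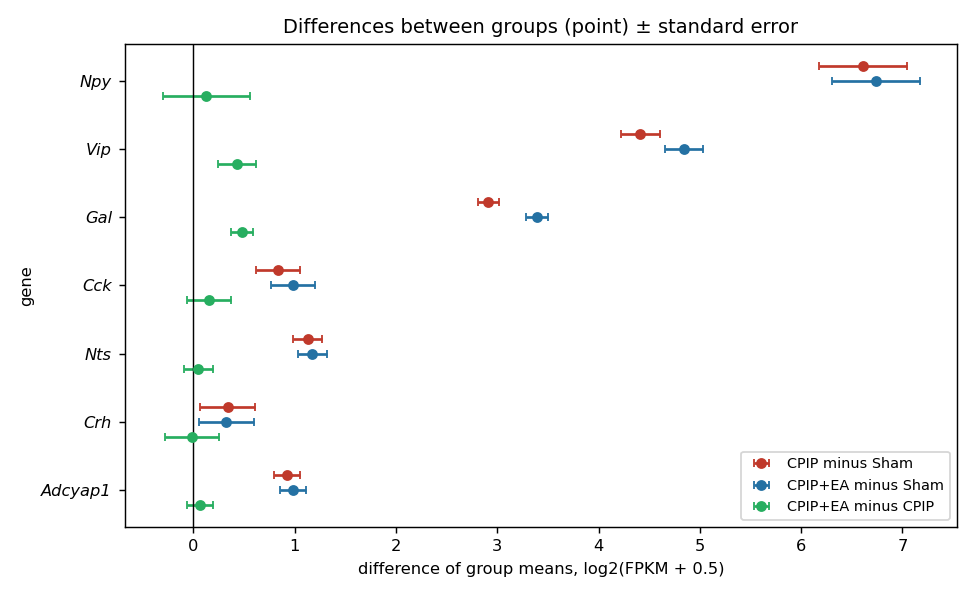
Differences of group means of log2(FPKM + 0.5) for the 7 genes (rows), with bars of 1 standard error, for CPIP minus Sham, CPIP+EA minus Sham and CPIP+EA minus CPIP. The differences from Sham run from 0.32 for Crh to 6.74 for Npy, and those of CPIP+EA minus CPIP lie between -0.013 and 0.48.

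The order of the 7 genes by level was rearranged. In Sham libraries Adcyap1 was highest, followed by Gal, Crh and Npy, whose ranges overlapped from each to the next, then Nts and Cck, which overlapped, and Vip. In CPIP the order was Npy, then Adcyap1 and Gal with overlapping ranges, then Vip, Crh, Nts and Cck with none overlapping its neighbour. In CPIP+EA the order was the same except that the mean of Gal was above that of Adcyap1, and these 2 overlapped again. The summed FPKM of the 7 genes lay between 33.5 and 41.5 in Sham libraries, between 457 and 514 after CPIP, and between 531 and 548 after CPIP+EA.

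Npy made up 3.40% to 17.1% of that sum in Sham libraries, 76.8% to 77.7% after CPIP and 72.3% to 77.9% after CPIP+EA. Adcyap1 made up 55.7% to 63.0% in Sham, 8.82% to 9.67% after CPIP and 7.33% to 10.4% after CPIP+EA, although its own FPKM was higher in both injured groups. By share, then, the set was mostly PACAP transcript in Sham and mostly neuropeptide Y transcript in both injured groups.

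**Figure D3:**
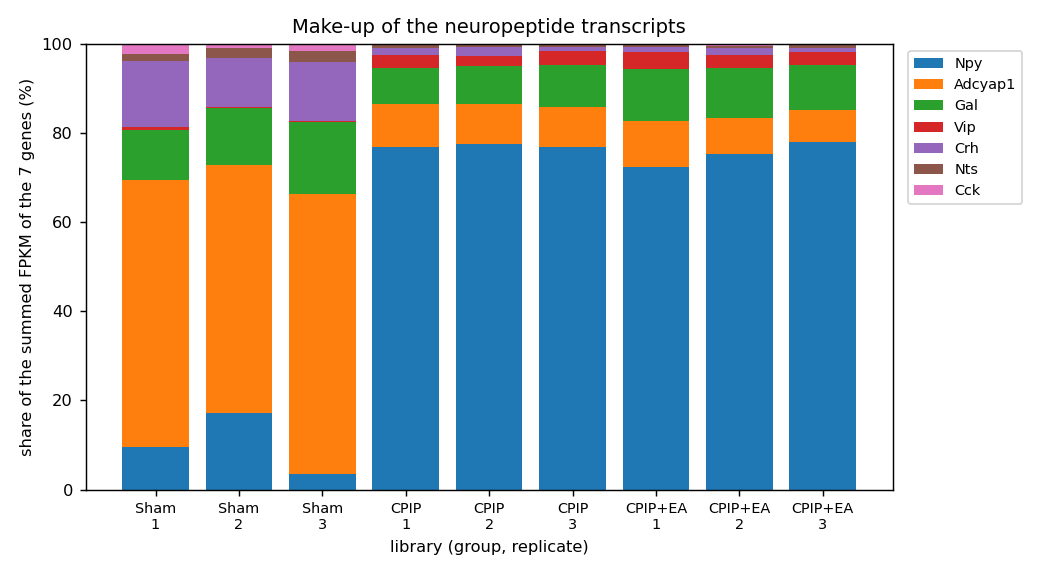
Share (%) of the summed FPKM of the 7 neuropeptide genes that each gene takes, for each of the 9 libraries (bars). Adcyap1 takes 55.7% to 63.0% of the Sham bars, and Npy takes 72.3% to 77.9% of the bars of both injured groups.

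Whether daily EA changed these peptides in injured rats is the comparison of CPIP+EA with CPIP, which the choice of genes did not use, although it shares the CPIP libraries with the one that was used. A gene passed the test at a limma p below 0.01 after Benjamini-Hochberg adjustment over all 17187 genes and a change of 1.5-fold or more in either direction. By this test 0 of the 7 genes passed, and 0% of all genes did. The limma adjusted p of the 7 genes ran from 0.969 to 0.998, and the smallest over all genes was 0.113. At an unadjusted p below 0.05 there were 2 of 7, Vip and Gal, both higher in CPIP+EA, beside 2.22% of all genes that were higher at that level (738 genes in either direction).

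Gal had the largest of these differences, a log2 value of 0.48 ± 0.11 (SE), with a 95% interval for the fold change of 1.18 to 1.65 (limma unadjusted p = 0.00150, adjusted p = 0.969). It was higher in CPIP+EA in every library, and this held on the TPM scale and after median centring. For Vip the log2 difference was 0.43 ± 0.19 with a fold interval that reached from just above no change to 1.81 (limma adjusted p = 0.996), and the groups overlapped. Npy also lay higher in every CPIP+EA library, by a margin of 396.31 against 395.27 FPKM, with a log2 difference of 0.13 ± 0.43 and a fold interval of 0.554 to 2.16. That error is shared with the Sham libraries, whose Npy values had an SD of 1.12 on the log2 scale, against 0.086 for CPIP and 0.031 for CPIP+EA. With only the 2 groups compared in the fit, the SE was 0.075 (limma adjusted p = 0.997). Thus 2 of 7 genes had no overlap with CPIP+EA higher, beside 4.84% of all genes.

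The log2 differences of the other 4 genes between CPIP+EA and CPIP were close to 0. They were 0.15 for Cck (95% interval -0.34 to 0.64), 0.063 for Adcyap1 (-0.23 to 0.35), 0.049 for Nts (-0.28 to 0.37) and -0.013 for Crh (-0.62 to 0.60). All of these overlapped between the groups. With these intervals a moderate change in either direction could not be told from none. The direction for Adcyap1 rested on CPIP+EA replicate 1, without which the value was -0.098, and that for Nts on CPIP replicate 3, without which it was -0.057. That for Crh turned in 4 of 9 fits, to between 0.033 and 0.22, without CPIP replicate 1 or 2 or CPIP+EA replicate 1 or 3. Cck kept its direction but ran from 0.013 without CPIP+EA replicate 2 to 0.33 without CPIP+EA replicate 1. In all, 6 of 7 genes lay above 0, with a median of 0.13 beside 0.012 over all genes, and none moved back towards its Sham level past the test.

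Markers of other cells differed in some libraries, and their part in the values above was not tested. Macrophage and neutrophil markers summed to 590 FPKM in CPIP+EA replicate 3, against 83.4 to 266 in the other libraries. Most of it came from the neutrophil genes S100a8 (238 FPKM) and S100a9 (272 FPKM). Muscle markers were highest in CPIP replicate 2, where their summed FPKM was 156 against 15.1 to 53.1 in the other libraries. As a list 7 of 8 muscle markers lay above Sham in both comparisons, with median log2 differences of 1.04 (CPIP) and 0.90 (CPIP+EA), and 0 passed the test. Schwann cell markers summed to 4976 to 9760 FPKM in CPIP+EA and 7000 to 12362 in CPIP, and meningeal and fibroblast markers to 871 to 1615 and 1576 to 1710, with 0 of 8 past the test in each list. In CPIP+EA minus CPIP, 7 of 8 Schwann cell markers and 8 of 8 meningeal and fibroblast markers lay below 0. Their median log2 differences were -0.45 and -0.40, beside 0.48 for Gal and 0.43 for Vip. All 6 tested central nervous tissue markers and 8 of 10 macrophage and neutrophil markers lay above 0, with medians of 0.15 and 0.21. Of the 18 sensory neuron markers 10 lay above 0 and 8 below, with a median of 0.015. Satellite glia, central nervous tissue, and macrophage and neutrophil markers also had 0 genes past the test in any comparison. Npy is made by sympathetic neurons too. The 9 sympathetic markers, of which 4 passed the filter with 0 past the test, summed to 21.75 to 26.95 FPKM in Sham, against 19.6 to 21.6 (CPIP) and 13.9 to 26.1 (CPIP+EA), almost all of it Chrna3. Each of the others was at most 0.52 FPKM in any library. Th was 0.48 to 0.52 FPKM in Sham, 0.14 to 0.28 after CPIP and 0.07 to 0.24 after CPIP+EA, whereas Slc6a2 was 0.22 to 0.30, 0.33 to 0.50 and 0.25 to 0.47. Hand2 was listed at 0 in all 9 libraries, and Dbh did not exceed 0.13 FPKM. The part of sympathetic fibres or neurons in the Npy values was not tested.

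Other genes of the peptide system are described from lists that were drawn up with earlier results of these data known. For CPIP minus Sham 0.355% of all genes passed the test (61 genes, 59 higher and 2 lower), and for CPIP+EA minus Sham 0.483% did (83 genes, 82 higher and 1 lower). Of 38 other neuropeptide precursors, 35 were in the table and 28 were tested, and Ucn alone passed, in both comparisons. The median log2 difference of the 28 was -0.037 for CPIP and -0.015 for CPIP+EA minus Sham. Calca stood at 742 ± 125, 695 ± 115 and 701 ± 106 FPKM in Sham, CPIP and CPIP+EA (SD, n = 3 each), with overlapping groups. Tac1 was lower in each CPIP library than in each Sham library, but its log2 difference of -0.23 did not pass (limma adjusted p = 0.576).

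Ucn (gene 29151) encodes urocortin, a relative of corticotropin-releasing hormone that binds the same receptors. It was almost absent from Sham libraries (0.11, 0.11 and 0 FPKM) and stood at 1.54, 1.89 and 2.55 FPKM after CPIP and at 2.84, 1.54 and 2.22 FPKM after CPIP+EA. Ucn rose by a log2 value of 2.11 in CPIP (limma adjusted p = 0.0019) and of 2.21 in CPIP+EA (limma adjusted p = 0.0011), whereas Crh itself overlapped between groups. With pseudocounts of 1 and 0.1 the CPIP value was 1.47 and 3.65. The CPIP call was lost without any 1 of the 3 Sham libraries or CPIP replicate 2 or 3, with a limma adjusted p of at most 0.0118 in these fits. The CPIP call was lost as well with replicate number as a block in the fit (limma adjusted p = 0.0153). The CPIP+EA call was kept with that block and in 9 of 9 fits that left out a library.

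Of the 22 genes for peptide processing and dense-core vesicles, all tested, Vgf passed in CPIP and Vgf and Syt4 passed in CPIP+EA, each higher than in Sham. The medians of the list were -0.098 and -0.052. Vgf, a granin-like precursor of several peptides, rose from 13.6 ± 2.17 FPKM in Sham to 35.2 ± 4.48 after CPIP and 35.01 ± 5.84 after CPIP+EA (SD, n = 3 each; limma adjusted p = 0.0037 and 0.0033). Syt4, a vesicle protein of the synaptotagmin family, had means of 79.99, 124 and 130 FPKM (SD 7.62, 10.8 and 10.0), with a limma adjusted p of 0.018 in CPIP and 0.0077 in CPIP+EA. The most abundant genes of the list, Pcsk1n and Ctsl, overlapped between all groups. Of 9 fits that each left out a library, the Vgf call was kept in 3 for CPIP (lost without any Sham library, CPIP replicate 2 or 3 or CPIP+EA replicate 2) and in 5 for CPIP+EA (lost without Sham replicate 2 or 3 or CPIP+EA replicate 1 or 2). The Syt4 call in CPIP+EA was kept in 2, those without Sham replicate 1 and without CPIP replicate 3, and in 3 of 10 other alternatives. With only the 2 groups compared in the fit, the CPIP+EA calls of Vgf and Syt4 were both lost. With replicate number as a block in the fit, every call of Vgf and Syt4 was lost.

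Among 18 receptor and binding protein genes for the member peptides, 15 of them tested, Cckbr alone passed, in both comparisons with Sham. Cckbr encodes the receptor that binds both cholecystokinin and gastrin. Its FPKM was 0.39, 0.08 and 0.37 for Sham, 2.57, 3.51 and 3.58 for CPIP, and 3, 3.61 and 1.79 for CPIP+EA. The log2 differences were 2.27 (limma adjusted p = 0.0032) and 2.07 (limma adjusted p = 0.0044), and with the pseudocount they ran from 1.72 to 3.25 and from 1.55 to 3.01. Its calls were kept in 4 and 3 of 9 fits that left out a library. Both were lost without any Sham library or CPIP replicate 2, and with replicate number as a block in the fit. That in CPIP was also lost without CPIP replicate 3. That in CPIP+EA was also lost without CPIP+EA replicate 1 or 2 and with only its 2 groups in the fit. Sort1 and Npy1r, the most abundant of the list, overlapped between Sham and both injured groups, and the medians were 0.054 and 0.037.

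All 20 axon injury genes were tested. Because this list was drawn up with CPIP against Sham results known, its counts and p-values describe these libraries and are not independent evidence of its direction. In CPIP 13 of the 20 passed, all higher, with a median log2 difference of 1.31, and in CPIP+EA 13 passed, all higher, with a median of 1.41. Leaving out 1 library gave 9 to 13 and 11 to 14 genes. Atf3, a transcription factor of the ATF/CREB family switched on in damaged neurons, was at 4.77, 6.86 and 5.37 FPKM in Sham libraries, at 55.88, 50.51 and 61.58 FPKM after CPIP and at 72.86, 74.87 and 57.37 FPKM after CPIP+EA. Its log2 difference in CPIP was 3.20, and those of Stac2, Sprr1a, Csrp3 and Ecel1 were 3.95, 2.76, 2.59 and 2.02 (limma adjusted p of at most 0.0014). Sprr1a, at 0, 0.08 and 0 FPKM in Sham, ran from 1.98 to 4.70 with the pseudocount, Stac2 from 3.36 to 4.77 and Csrp3 from 2.09 to 3.30. Their calls and that of Atf3 were kept in each fit that left out a library. Nefl, a neurofilament gene with the highest level of the list at 2959 ± 280 FPKM in Sham, and Hspb1 did not pass. In CPIP+EA minus CPIP, 0 genes of all these lists passed.

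**Figure D4:**
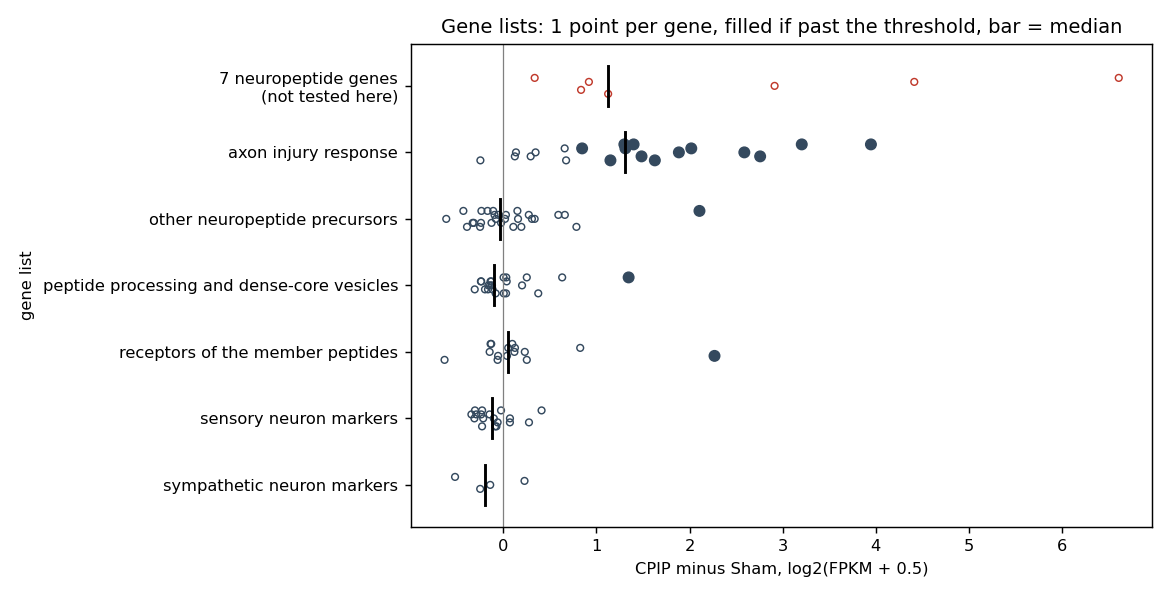
CPIP minus Sham differences of log2(FPKM + 0.5), 1 point per gene, for the 7 neuropeptide genes and 6 gene lists (rows), with filled points past the test and a bar at each median. The 20 axon injury genes have a median of 1.31, and the other lists drawn have medians between -0.19 and 0.054 with at most 1 filled point each. Lists of glial, immune, muscle, fibroblast and central nervous markers are not drawn. Their medians ran from -0.14 (meningeal and fibroblast) to 1.04 (muscle).

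The genes whose profile over the 9 libraries was nearest to that of the 7 neuropeptides were found by the Euclidean distance between z-scores of log2(FPKM + 0.5), where 0 would be the same profile. The median distance over 17180 other tested genes was 3.86. The 10 nearest were Mmp16 (0.506), Serpina3n (0.533), Stmn4 (0.539), Sprr1a (0.566), Cbln2 (0.602), Stac2 (0.606), Kctd13 (0.615), Ecel1 (0.623), LOC688459 (0.626) and Hamp (0.628). Of these, Stmn4, Sprr1a, Stac2 and Ecel1 are in the axon injury list and the other 6 in none. Both the members and that list were chosen with the injury values known, so this overlap is a description only.

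Serpina3n, a secreted protease inhibitor, had means of 0.813 ± 0.691, 38.7 ± 17.9 and 33.5 ± 6.98 FPKM for Sham, CPIP and CPIP+EA (SD, n = 3 each). Hamp, the gene of the iron hormone hepcidin, was at 0, 0.18 and 0 FPKM in Sham libraries, at 9.21, 13.15 and 11.09 after CPIP and at 10.05, 11.92 and 7.65 after CPIP+EA. The members themselves lay at distances of 0.612 for Vip, 0.652 for Npy, 0.672 for Gal, 0.824 for Nts, 0.918 for Adcyap1, 1.27 for Cck and 2.53 for Crh from the mean profile to which each contributes. Crh thus stood farthest from the other members.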

How the data were processed

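RNA of L4-6 DRG was enriched with oligo(dT) and sequenced on a BGISEQ-500 (single-end reads), per the labels and the study's methods, which give 3 rats per group. The labels do not tie a library to an animal, so p-values measure the spread between libraries, which may be technical. The authors filtered reads and deposited FPKM per gene and library, with 2 decimals. The genome build behind the FPKM is not given in the sources used here. Deposited values were used without further scaling. The 17187 genes whose mean FPKM reached 0.1 were fitted in limma 3.58.1 (R 4.3.3) on log2(FPKM + 0.5), with all 9 libraries in 1 fit with a trend, two-sided tests, and Benjamini-Hochberg adjustment. The script was tested on simulated data.

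The 7 genes and the lists were chosen with earlier results of these data known. Named genes were the 7, of each pathway list those past the test (at most 5) and the 2 most abundant, and the 10 nearest profiles. Sensory, sympathetic and neutrophil marker genes were named after their values were seen. Alternatives were other pseudocounts, filters and scalings, a fit without the trend, a replicate block, pairwise fits, another threshold and leaving out each library.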

Additional observations from a re-analysis of the deposited data

How the results depend on the processing

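For CPIP+EA minus CPIP, 0 of the 7 neuropeptides passed in each of the 20 alternatives, and the lowest adjusted p any of them reached was 0.376, for Gal. Of 133 alternative values of their log2 differences in this comparison, 127 kept their direction and 6 turned it, each without 1 library. Leaving out each library gave -0.31 to 0.22 for Crh, -0.057 to 0.19 for Nts, -0.098 to 0.18 for Adcyap1 and 0.013 to 0.33 for Cck. Crh turned to 0.055 and 0.22 without CPIP replicates 1 and 2, and to 0.033 and 0.14 without CPIP+EA replicates 1 and 3. In each of the comparisons with Sham, 0 of 133 values turned direction. The genes were chosen on CPIP against Sham, and CPIP+EA minus Sham shares the Sham libraries, so this is a description only. The sizes of low genes moved with the pseudocount or the TPM scale. For CPIP minus Sham, Vip went from 4.41 to 5.80, 3.63 or 5.17 and Nts to 1.43, and for CPIP+EA minus Sham, Vip went to 6.24, 4.05 or 5.58, Nts to 1.49, 0.93 or 1.35 and Cck to 1.39. Without 1 library, Npy in CPIP minus Sham was 6.00 to 7.11.

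The number of genes past the test depended more on the fit. Of all genes, 61 passed for CPIP minus Sham and 83 for CPIP+EA minus Sham, against 26 and 42 with a replicate block, 122 and 226 at an adjusted p below 0.05 with no fold, and 51 for CPIP+EA minus Sham when only its 2 groups were fitted. That pairwise fit gave 1 gene for CPIP+EA minus CPIP, where the block gave 0. Same-numbered libraries of different groups had correlations of -0.236 to 0.297 in their deviations from the group means, beside -0.223 to 0.280 for other numbers. These ranges gave no sign that the numbers pair the samples, but with so few libraries a weak pairing could go unseen. Leaving out 1 library gave 30 to 62, 35 to 82 and 0 to 2 genes for CPIP minus Sham, CPIP+EA minus Sham and CPIP+EA minus CPIP, with changes of over 1.5 times in the comparisons with Sham without each Sham library, CPIP replicates 2 and 3 and CPIP+EA replicate 2. For CPIP+EA minus CPIP, 2 genes passed without CPIP+EA replicate 1 and 1 without Sham replicate 3, CPIP replicate 3 or CPIP+EA replicate 3. Apart from fewer samples, the cause was not tested. With 3 libraries per group and no read counts, small changes of low genes such as Cck and Nts could not be resolved.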
